A study of Mus musculus with 6 samples.

Results

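The Cyp4 genes encode cytochrome P450 enzymes that oxidize the far, omega end of fatty acids. All 10 members of the family examined here were chosen by symbol from the 24411 gene symbols of the liver table. They comprised 6 Cyp4a genes (Cyp4a10, Cyp4a12a, Cyp4a12b, Cyp4a14, Cyp4a31 and Cyp4a32), 3 Cyp4f genes (Cyp4f13, Cyp4f14 and Cyp4f15) and Cyp4v3. Liver RNA was sequenced from 3 p62+/+ and 3 p62S351E/+ mice, all 19 days old. The p62S351E/+ mice carried 1 Sqstm1 allele, encoding the autophagy receptor p62, in which Ser351 was replaced by Glu to mimic its phosphorylation, and p62+/+ mice had no edited allele. The edit was made by prime editing in C57BL/6N-derived embryonic stem cells, and the heterozygotes came from the sperm of 1 male chimera by in vitro fertilization, so the allele descended from a single founder. Neither sex nor a preparation batch was given for any mouse.

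Omega-hydroxylation takes place in the endoplasmic reticulum, where the P450 receives electrons from Por, the P450 reductase. The resulting omega-hydroxy fatty acid is oxidized further to a dicarboxylic acid and shortened in peroxisomes. In mouse liver Cyp4a10 and Cyp4a14 are textbook targets of PPARα, the nuclear receptor that senses fatty acids, and are known to be induced by fasting and by fibrate drugs. The study reported severe growth retardation in younger p62S351E/+ mice, with low blood glucose among the serum signs of malnutrition. Genotype and nutritional state therefore cannot be told apart in these livers. Cyp4f enzymes act on leukotrienes, other eicosanoids and vitamin E as well as on fatty acids. Cyp4v3 is the mouse counterpart of the human gene that is mutated in Bietti crystalline dystrophy, a disease of the retina.

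On GRCm38 (mm10), the build on which the counts were made, as annotated by GENCODE, all 6 Cyp4a genes lay in a cluster on chromosome 4, from Cyp4a12a at chr4:115299046-115332815 to Cyp4a32 at chr4:115600969-115621602. Cyp4a10 occupied chr4:115518264-115533649 on the plus strand and Cyp4a14 occupied chr4:115486200-115496142 on the minus strand. The 3 Cyp4f genes lay on chromosome 17, with Cyp4f14 at chr17:32905070-32917342 and Cyp4f13 at chr17:32924688-32947402, both on the minus strand, and Cyp4f15 at chr17:32685627-32703352 on the plus strand. Cyp4v3 stood alone at chr8:45304944-45333216 on the minus strand. The coding sequences of Cyp4a10 and Cyp4a14 were 75.6% identical, and that of Cyp4f14 was 80% identical to Cyp4f15 and 58.4% identical to Cyp4a10.

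How far a read could tell the members apart differed between the branches, which is shown by the coding sequence around the codon of the cysteine that holds the haem iron. Each window below was 75 bases long, the length of a read in these libraries. Capitals mark that codon in Cyp4a10 and Cyp4f14, bases that differ from Cyp4a10 in Cyp4a14, and bases that differ from Cyp4f14 in Cyp4f13 and Cyp4f15.
Cyp4a10: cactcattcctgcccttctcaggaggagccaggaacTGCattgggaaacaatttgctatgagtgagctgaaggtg
Cyp4a14: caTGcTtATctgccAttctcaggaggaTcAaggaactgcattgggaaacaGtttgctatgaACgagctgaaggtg
Cyp4f14: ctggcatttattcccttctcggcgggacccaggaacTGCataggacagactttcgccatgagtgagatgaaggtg
Cyp4f13: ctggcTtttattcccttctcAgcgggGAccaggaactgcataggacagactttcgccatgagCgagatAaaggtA
Cyp4f15: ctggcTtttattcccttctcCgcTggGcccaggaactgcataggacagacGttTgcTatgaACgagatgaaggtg
Cyp4a31 and Cyp4a32 carried the Cyp4a10 window with 0 differing bases, so a read from it could not be assigned to 1 of the 3 genes. Cyp4a14 differed from Cyp4a10 there at 11 bases, and Cyp4f13 and Cyp4f15 differed from Cyp4f14 at 7 and 9 bases.

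Over whole transcripts, 0% of the 75-base words of Cyp4a14 and 0.162% of those of Cyp4f14 occurred in a transcript of another gene. The share was 18.4% for Cyp4a10, 12.8% for Cyp4a31 and 28% for Cyp4a32, nearly all of it between these 3 genes, and about 41% for both Cyp4a12a and Cyp4a12b (40.8% and 41.3%), all of it between these 2. The deposited estimated counts showed the same division. Cyp4a10 had a fractional count in every library, Cyp4a14 had whole counts in all 6, and the sum over Cyp4a10, Cyp4a31 and Cyp4a32 was whole within 0.01 in all 6. Cyp4v3 shared 6.4% of its words with Gm45753, and whether the counting used strand was not given in the sources used here. The separate values of Cyp4a10, Cyp4a31, Cyp4a32, Cyp4a12a and Cyp4a12b therefore depended on how the authors' counting divided reads among near copies.

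**Figure D1:**
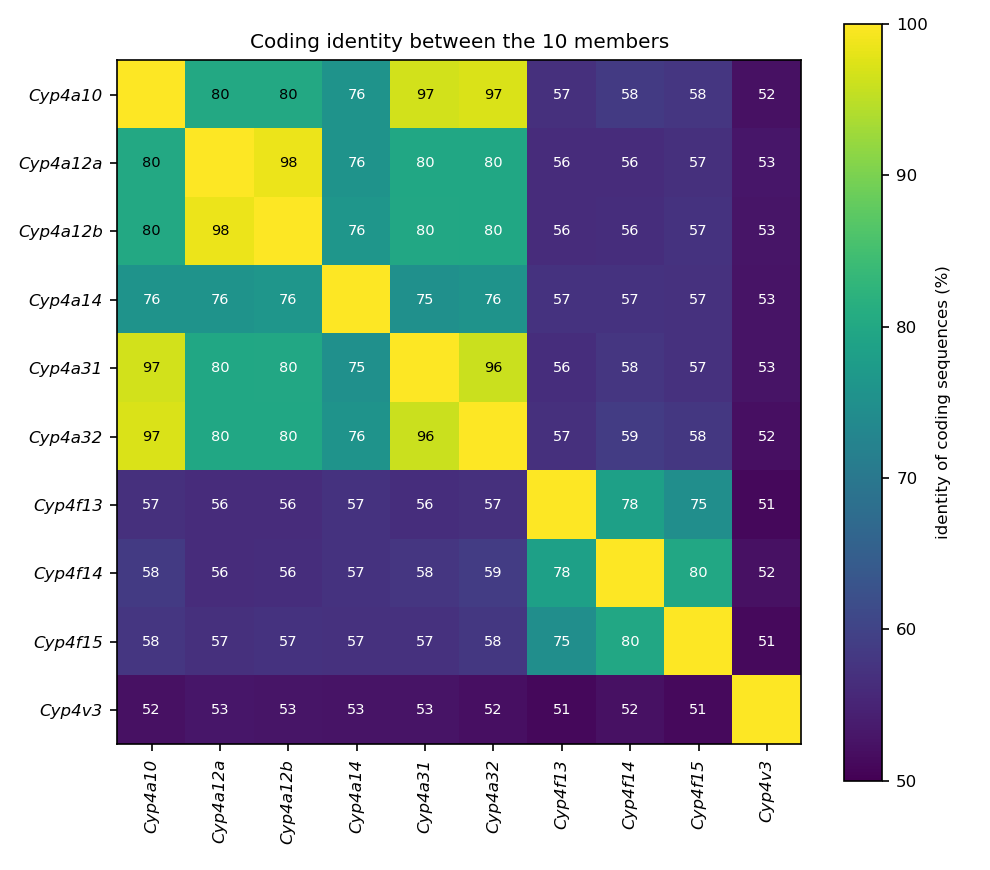
Identity of the annotated coding sequences between each pair of members, in percent, with both axes listing the 10 genes and the colour giving the identity. Cyp4a10, Cyp4a31 and Cyp4a32 form a block of at least 96% and Cyp4a12a and Cyp4a12b a pair at 98.5%, whereas Cyp4a14 and the Cyp4f genes have no such near copy among the members.

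Total counts ran from 8696712 to 10341622 per mouse, but 45S ribosomal RNA and 2 further abundant loci (Lars2 and Mir6236) took between 96.7% and 98.7% of them, and all other genes held between 134911 and 315436 counts. The smallest of these was p62S351E/+ mouse 1, in which 1 count was worth 1.9 normalized counts, against 0.775 in p62S351E/+ mouse 3. Normalized counts are estimated counts scaled to a common effective library size by the TMM method. The defining hepatocyte markers were abundant in every library, with 9 genes summing to between 10799 and 25123 counts, and 9 of 10 kidney tubule markers were at 0. Transcripts of 12 brain marker genes summed to between 2313 and 2718 counts in the p62+/+ mice and p62S351E/+ mouse 3, and to 46 and 34 counts in p62S351E/+ mice 1 and 2. Counts of Xist, a transcript of the silenced X chromosome in females, were 70.8, 1505 and 1071 in p62+/+ mice 1, 2 and 3 against 1, 0 and 1537 in p62S351E/+ mice 1, 2 and 3. A codon change in Sqstm1 itself need not alter the amount of its RNA. By real-time PCR in younger mice, however, the study reported much more p62 RNA in p62S351E/+ than in wild-type livers. In the libraries here the log2 fold change of Sqstm1 was 0.30 (standard error, hereafter SE, 0.20; adjusted p = 0.498 by edgeR's quasi-likelihood test with Benjamini-Hochberg adjustment), and -0.39 with library size as the only scaling. These p-values measure the spread between these mice only, and with 3 mice a side the smallest two-sided p of an exact permutation test is 0.1.

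Genes were called at an adjusted p below 0.05 with a log2 fold change beyond 1 in either direction. Of the 10 members, 7 had enough counts to be tested, and Cyp4a12a, Cyp4a12b and Cyp4a32 did not. Cyp4f14 was called lower in p62S351E/+ mice, against a background of 0.0841% of the 5945 genes tested (5 genes), and 0 members were called higher, against a background of 0.841% (50 genes). At an unadjusted p below 0.05 there were 2 members on the higher side, Cyp4a10 and Cyp4a14, against a background of 9.02%. On the lower side Cyp4f14 was the 1 member, against a background of 5.55%. The limma-voom fit called Cyp4a10 and Cyp4a14 higher, among 122 of the 5945 genes. DESeq2, which called 66 genes higher, called neither. All p62S351E/+ mice were above all p62+/+ mice for Cyp4a10, Cyp4a14 and Cyp4f15, as they were for 12% of the genes tested, and below them for Cyp4f14, as for 14.7%. Because the tissue was bulk liver, fewer cells of a type and less RNA per cell cannot be told apart.

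**Figure D2:**
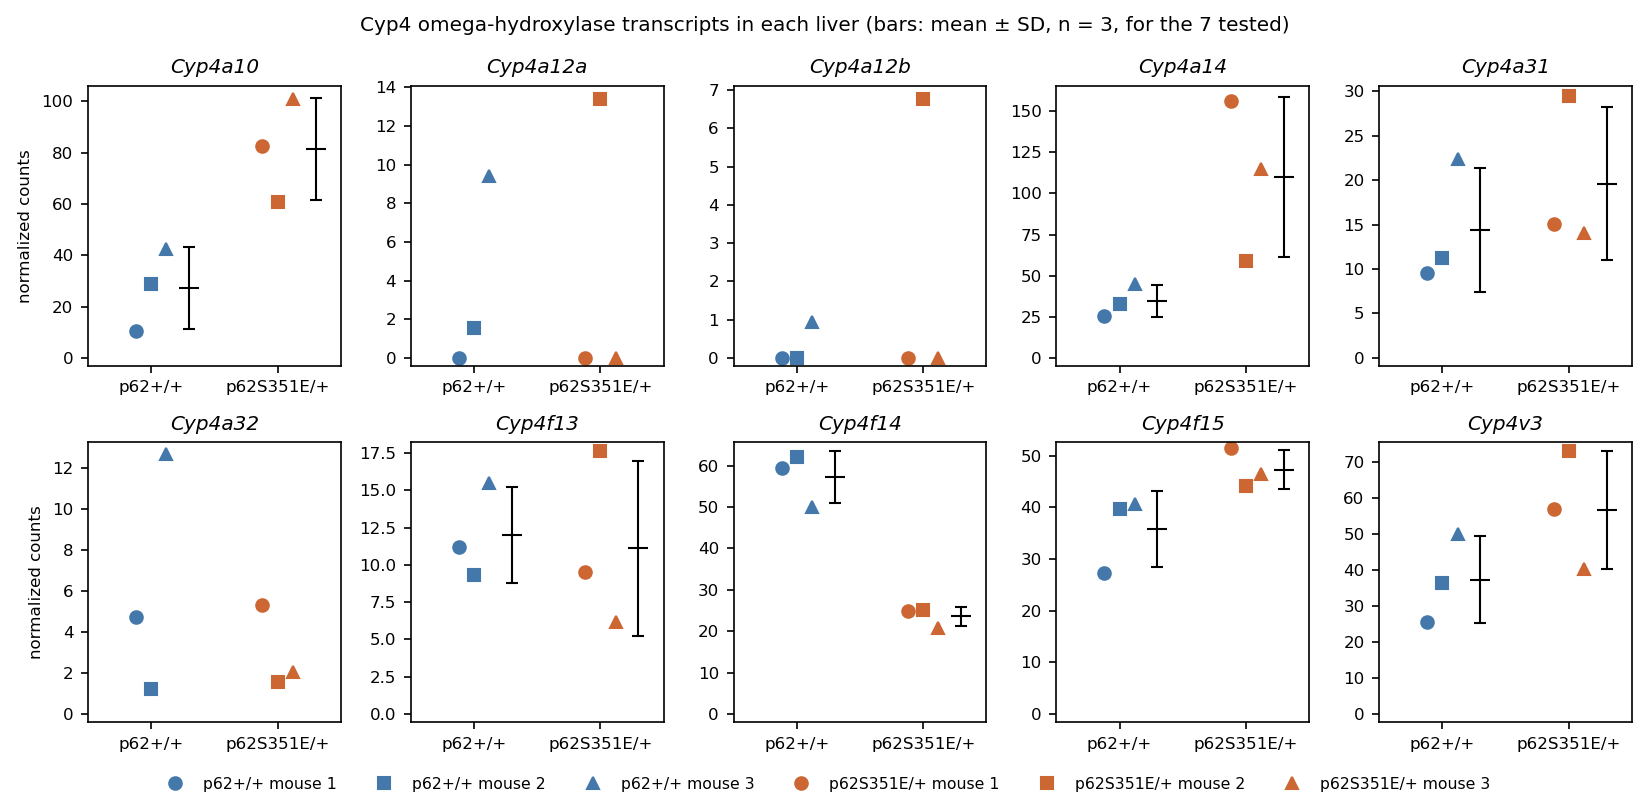
Normalized counts of the 10 members in each mouse (vertical axes, linear and scaled per gene), with p62+/+ mice in blue and p62S351E/+ mice in orange. Bars show the mean ± SD of 3 mice for the 7 genes tested. The blue and orange symbols do not overlap for Cyp4a10, Cyp4a14, Cyp4f14 and Cyp4f15.

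Cyp4f14, a leukotriene and vitamin E omega-hydroxylase, fell in p62S351E/+ livers. It stood at 59.4, 62.1 and 50.1 normalized counts in p62+/+ mice 1, 2 and 3 and at 24.8, 25.2 and 20.9 in p62S351E/+ mice 1, 2 and 3. The groups were widely separated and each was narrow, with means of 57.2 ± 6.29 and 23.6 ± 2.35 (SD, n = 3 each). The log2 fold change was -1.28 (SE 0.22, approximate 95% interval -1.71 to -0.85, adjusted p = 0.0411 by edgeR's quasi-likelihood test with Benjamini-Hochberg adjustment). The estimated counts before any scaling were 74, 80 and 58 in p62+/+ mice, against 13, 20 and 27 in p62S351E/+ mice. Unscaled counts run lower in p62S351E/+ mice 1 and 2 for depth alone. Outside Rn45s, Lars2 and Mir6236 these 2 mice held 134911 and 231631 counts, against 271473 to 299487 in p62+/+ mice. Per 1000 counts of the hepatocyte markers, Cyp4f14 had 4.09, 4.65 and 3.65 counts in p62+/+ and 1.2, 0.796 and 1.41 counts in p62S351E/+ mice. Scaling to these markers moved the median log2 fold change of all genes tested to -0.59. Cyp4f14 was then at -1.86 and did not pass (adjusted p = 0.0737 by edgeR). With p62S351E/+ mouse 3 alone, the 1 p62S351E/+ library that held brain transcripts like the p62+/+ libraries, the log2 fold change was -1.44, a value with no test since it rests on 1 mouse. With the summed brain markers as a covariate over all 6 mice it was -1.45 and did not pass (adjusted p = 0.119 by edgeR). The call was close to the threshold: 5 of the 6 fits that each left out 1 mouse gave an adjusted p between 0.0935 and 0.222, whereas leaving out p62S351E/+ mouse 3 gave 0.00531. DESeq2 gave 0.133, and edgeR with Xist as a covariate 0.0997.

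Cyp4a14 is a fatty acid omega-hydroxylase and the Cyp4a gene whose reads were not shared. It had 25.7, 32.6 and 44.9 normalized counts in p62+/+ mice, against 156, 59.2 and 115 in p62S351E/+ mice. Every p62S351E/+ mouse was above every p62+/+ mouse, with mouse 2 the closest to them. The means were 34.4 ± 9.74 and 110 ± 48.6 (SD, n = 3 each), a ratio of 3.2. The log2 fold change of 1.67 (SE 0.37, approximate 95% interval 0.94 to 2.40) did not pass (adjusted p = 0.0991 by edgeR's quasi-likelihood test with Benjamini-Hochberg adjustment). Leaving out p62S351E/+ mouse 2 or p62S351E/+ mouse 3 brought the adjusted p to 0.0357 and 0.00855, and limma-voom gave 0.0202, while leaving out any other mouse kept it at 0.219 or more and the range over all alternatives tested was 0.00855 to 0.42. The fit without p62S351E/+ mouse 3 called 333 of 6390 genes higher, so passing there was not particular to Cyp4a14. Per 1000 hepatocyte marker counts the genotypes overlapped for Cyp4a14, at 1.77, 2.44 and 3.27 in p62+/+ mice, against 7.59, 1.87 and 7.74 in p62S351E/+ mice, with mouse 2 holding the most marker counts (25123).

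Cyp4a10, a fatty acid omega-hydroxylase of the same cluster, had 10.5, 28.7 and 42.6 normalized counts in p62+/+ mice, against 82.4, 60.9 and 101 in p62S351E/+ mice. The genotypes did not overlap, and p62+/+ mouse 1 was the lowest. The log2 fold change was 1.58 (SE 0.47; adjusted p = 0.222 by edgeR's quasi-likelihood test with Benjamini-Hochberg adjustment). Leaving out p62S351E/+ mouse 3 brought this adjusted p to 0.0438 and limma-voom gave 0.0277, within a range of 0.0277 to 0.525 over all alternatives tested. The fit without p62S351E/+ mouse 3 called 333 of 6390 genes higher, so passing there was not particular to Cyp4a10. Per 1000 hepatocyte marker counts the genotypes overlapped for Cyp4a10, at 0.725, 2.15 and 3.11 in p62+/+ and 4.01, 1.92 and 6.81 in p62S351E/+ mice.

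Summed with its near copies Cyp4a31 and Cyp4a32, the Cyp4a10 group had 24.9, 41.1 and 77.7 normalized counts in p62+/+ and 103, 92 and 117 in p62S351E/+ mice. The groups stayed apart, with a log2 fold change of 1.12 (SE 0.38; adjusted p = 0.258 by the same test). Of this sum, Cyp4a10 took 42.3%, 69.7% and 54.9% in p62+/+ mice, against 80.1%, 66.2% and 86.2% in the p62S351E/+ mice, so the shares overlapped between the genotypes. Cyp4a31 alone had between 9.59 and 22.4 normalized counts in p62+/+ and between 14 and 29.5 in p62S351E/+ mice, which overlapped (log2 fold change 0.44, SE 0.44; adjusted p = 0.63 by edgeR's quasi-likelihood test with Benjamini-Hochberg adjustment). Cyp4a31 turned to the lower side with library size only (-0.26), with the brain-marker covariate (-0.12), with scaling to hepatocyte markers (-0.24) and with mouse 3 alone (-0.01). Cyp4a32 had between 1.61 and 14.7 counts in p62+/+ mice and between 1.24 and 2.8 counts in p62S351E/+ mice.

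Cyp4a12a is known for androgen-dependent expression and arachidonic acid hydroxylation in adult males. At day 19 it had 0, 2 and 10.9 counts in p62+/+ mice, against 0, 10.6 and 0 counts in p62S351E/+ mice. Its near copy Cyp4a12b had 0, 0 and 1.09 counts in p62+/+ mice, against 0, 5.37 and 0 counts in p62S351E/+ mice. Nearly all reads of the pair thus came from 1 mouse of each genotype, p62+/+ mouse 3, with 1071 Xist counts, and p62S351E/+ mouse 2, with 0. Every library also held counts of Ddx3y, a gene of the Y chromosome, with 6 and 33 in these 2 mice. Sex was therefore not read from Xist. A difference between the genotypes was not detectable at this depth.

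Neither of the other Cyp4f genes passed. Cyp4f15 had 27.3, 39.6 and 40.6 normalized counts in p62+/+ mice, against 51.4, 44.1 and 46.5 in p62S351E/+ mice. Its groups did not overlap, on the side opposite to Cyp4f14, but were close. The log2 fold change was 0.40 (SE 0.23, approximate 95% interval -0.06 to 0.86, adjusted p = 0.453 by edgeR's quasi-likelihood test with Benjamini-Hochberg adjustment). Library size only (-0.26) and scaling to hepatocyte markers (-0.15) put Cyp4f15 on the lower side. Cyp4f13, with the fewest counts of the tested members, had 11.2, 9.32 and 15.5 normalized counts in p62+/+ and 9.52, 17.6 and 6.2 in p62S351E/+ mice. The groups overlapped (log2 fold change -0.13, SE 0.45; adjusted p = 0.908 by the same test), and the sign of Cyp4f13 changed when p62+/+ mouse 3 (0.10) or p62S351E/+ mouse 3 (0.21) was left out. Other settings moved Cyp4f13 further down, to -1.03 with the brain-marker covariate, -0.86 with library size only and -0.83 with scaling to hepatocyte markers, none of which passed. Per 1000 hepatocyte marker counts Cyp4f13 had 0.773, 0.697 and 1.13 counts in p62+/+ and 0.463, 0.557 and 0.419 in p62S351E/+ mice, which did not overlap. Scaling to these markers moved the median log2 fold change of all genes tested to -0.59, so a lower value there is not particular to Cyp4f13.

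Cyp4v3 had 25.7, 36.5 and 50.1 normalized counts in p62+/+ mice, against 57.1, 73.1 and 40.3 in p62S351E/+ mice. The groups overlapped through p62S351E/+ mouse 3, which lay below p62+/+ mouse 3. Its log2 fold change was 0.60 (SE 0.32; adjusted p = 0.417 by edgeR's quasi-likelihood test with Benjamini-Hochberg adjustment), and it became -0.13 with library size only and -0.06 with scaling to hepatocyte markers.

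Divided by the length of the annotated exons, the members ranked differently in the 2 genotypes. In p62+/+ livers Cyp4f14 was the most abundant at 23.6 ± 2.6 normalized counts per kilobase, followed by Cyp4f15 (16.5 ± 3.42), Cyp4a14 (13.8 ± 3.9), Cyp4a10 (12.9 ± 7.63), Cyp4v3 (9.82 ± 3.2), Cyp4f13 (6.85 ± 1.82) and Cyp4a31 (5.74 ± 2.78; SD, n = 3 mice for each level). Below Cyp4f14, whose mean ± SD was clear of that of Cyp4f15, all neighbours in this order overlapped within their SD. In p62S351E/+ livers Cyp4a14 (44.1 ± 19.5) and Cyp4a10 (38.6 ± 9.48) came first and overlapped each other, and Cyp4f15 (21.8 ± 1.72), Cyp4v3 (14.9 ± 4.31), Cyp4f14 (9.76 ± 0.971), Cyp4a31 (7.81 ± 3.44) and Cyp4f13 (6.34 ± 3.36) followed, again in normalized counts per kilobase (SD, n = 3 mice each). In that order Cyp4a10 and Cyp4f15, and Cyp4f15 and Cyp4v3, were apart by more than their SD, whereas Cyp4f14 overlapped with Cyp4v3, Cyp4a31 and Cyp4f13, so its place among these was not resolved. The mean levels of Cyp4a32, Cyp4a12a and Cyp4a12b were at most 4.08 normalized counts per kilobase in either genotype.

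A quotient of 2 members within 1 library does not depend on how libraries are scaled. The summed Cyp4a counts over the summed Cyp4f counts gave 0.517, 0.678 and 1.25 in p62+/+ mice, against 3.02, 1.97 and 3.15 in p62S351E/+ mice. All p62S351E/+ mice were above all p62+/+ mice, with mean log2 quotients of 1.41 ± 0.37 and -0.40 ± 0.65 (SD, n = 3 each), a difference of 1.81 that stayed between 1.53 and 2.17 when any 1 mouse was left out. No test was made of these quotients, because they were built from chosen members.

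Among single pairs, Cyp4a14 over Cyp4f14 was 0.433, 0.525 and 0.897 in p62+/+ and 6.31, 2.35 and 5.48 in p62S351E/+ mice. Within the Cyp4f branch, Cyp4f15 over Cyp4f14 was 0.46, 0.638 and 0.81 in p62+/+ and 2.08, 1.75 and 2.22 in p62S351E/+ mice, so both quotients crossed from below 1 in every p62+/+ mouse to above 1 in every p62S351E/+ mouse. Cyp4a14 over Cyp4v3 was 1, 0.894 and 0.897 in p62+/+ and 2.73, 0.81 and 2.85 in p62S351E/+ mice and overlapped, with p62S351E/+ mouse 2 the lowest of all. Cyp4a10 over Cyp4a14 was 0.41, 0.88 and 0.949 in p62+/+ and 0.527, 1.03 and 0.88 in p62S351E/+ mice and overlapped. With Cyp4v3 added to the Cyp4f sum the difference of the mean log2 quotients was 1.49.

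**Figure D3:**
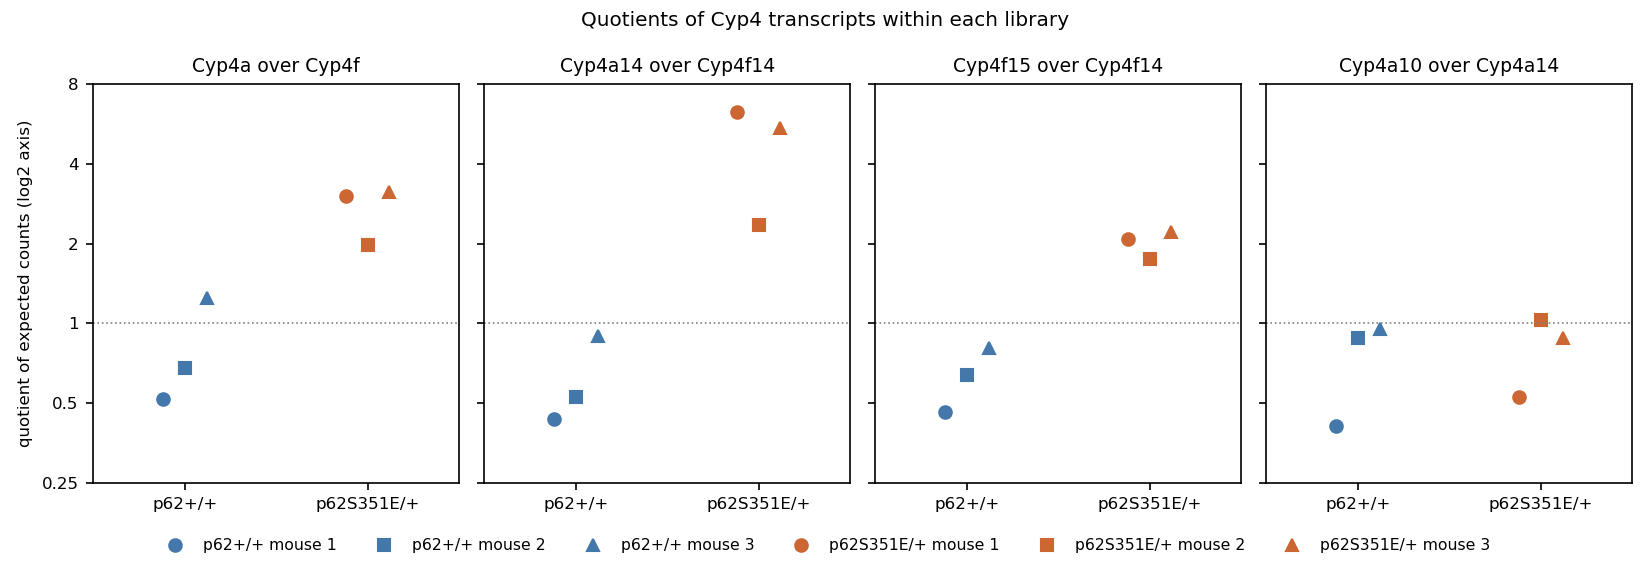
Quotients of estimated counts within each library on a log2 axis, 1 symbol per mouse, with p62+/+ in blue and p62S351E/+ in orange and a dotted line at 1. The genotypes are apart in the first 3 panels and overlap in Cyp4a10 over Cyp4a14, where p62S351E/+ mice lie between 0.527 and 1.03.

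The receptor that controls Cyp4a10 and Cyp4a14 and its other targets were examined from a list. Ppara had 57.8, 73 and 70 normalized counts in p62+/+ mice, against 74.3, 101 and 77.5 in p62S351E/+ mice, with a log2 fold change of 0.33 (SE 0.22; adjusted p = 0.499 by edgeR's quasi-likelihood test with Benjamini-Hochberg adjustment). Ppara turned lower with library size only (-0.32) and with scaling to hepatocyte markers (-0.27). Of 42 PPARα targets outside the Cyp4 family, 30 were tested, 1 was called higher and 0 were called lower, and at an unadjusted p below 0.05 there were 12 higher and 1 lower. Over all genes tested, 0.841% were called higher, 9.02% lay higher and 5.55% lower at an unadjusted p below 0.05. DESeq2 called 0 targets. The limma-voom fit called 4 higher and 1 lower, beside 122 higher and 13 lower of all 5945 genes tested. The log2 fold change was above 0 for 26 of the 30, beside 48% of all genes tested, with a median of 0.48 beside -0.03. For 15 of the 30 all p62S351E/+ mice were above all p62+/+ mice, beside 12% of all genes. This median fell to 0.21 with the brain-marker covariate and 0.25 with p62S351E/+ mouse 3 alone, and it was -0.27 with library size only and -0.12 with scaling to hepatocyte markers, settings that moved the median of all genes to -0.68 and -0.59. The target that rose was Acadm, the medium-chain acyl-CoA dehydrogenase, with a log2 fold change of 1.42 (SE 0.24; adjusted p = 0.0387 by edgeR's quasi-likelihood test with Benjamini-Hochberg adjustment). The call was lost for Acadm in 5 of the 6 fits that left out 1 mouse (adjusted p 0.0926 to 0.2 by edgeR), with DESeq2 (0.0904), with either covariate (0.113 and 0.127), with the replicate block (0.126), with library size only (0.424) and with scaling to hepatocyte markers (0.368).

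Targets that did not pass included Ehhadh, a peroxisomal enzyme (log2 fold change 1.34), and Cpt1a, the carnitine palmitoyltransferase of mitochondria (0.69), which turned lower with library size only (-0.11). Fabp1, the liver fatty acid binding protein, lay on the other side with a log2 fold change of -1.61 (SE 0.44; adjusted p = 0.188 by edgeR's quasi-likelihood test with Benjamini-Hochberg adjustment). Pdk4, Fgf21 and Acot1 had too few counts to be tested, and Pdk4 had 34 counts in p62S351E/+ mouse 1 against 0 to 6 counts in each other mouse.

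The steps on either side of the hydroxylation were examined in the same way. Of the 4 genes listed as electron donors, 0 were called by edgeR, DESeq2 or limma-voom. At an unadjusted p below 0.05, 2 of the 4 lay higher, beside 9.02% of all genes. Por had 75.4, 95.5 and 96.7 normalized counts in p62+/+ and 122, 165 and 142 in p62S351E/+ mice, which did not overlap (log2 fold change 0.68, SE 0.22; adjusted p = 0.234 by edgeR's quasi-likelihood test with Benjamini-Hochberg adjustment). Of 19 genes that oxidize omega-hydroxy fatty acids onward, 8 of which are also on the list of PPARα targets, 14 were tested. Of these 14, 0 were called by edgeR or DESeq2 and 2 by limma-voom, which called 122 of all 5945 genes higher. At an unadjusted p below 0.05 there were 8 higher, beside 9.02% of all genes. The log2 fold change was above 0 for 14 of 14 (48% of all genes), with a median of 0.62. With library size only 5 of these 14 were above 0 and the median was -0.06, and with scaling to hepatocyte markers 7 were above 0 and it was -0.00. These 2 settings moved the median of all genes to -0.68 and -0.59. With the brain-marker covariate 10 of the 14 were above 0 (median 0.33). With p62S351E/+ mouse 3 alone 10 were above 0 as well (median 0.38). Aldh3a2, the fatty aldehyde dehydrogenase that takes the aldehyde to the acid, had 12.8, 24.8 and 28.5 normalized counts in p62+/+ mice, against 68.6, 68 and 55.8 in p62S351E/+ mice. Its groups were apart but it did not pass (log2 fold change 1.53, SE 0.31; adjusted p = 0.0759 by edgeR's quasi-likelihood test with Benjamini-Hochberg adjustment). The hepatocyte markers had a median log2 fold change of 0.56 in the same comparison, and their part in these medians was not tested.

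**Figure D4:**
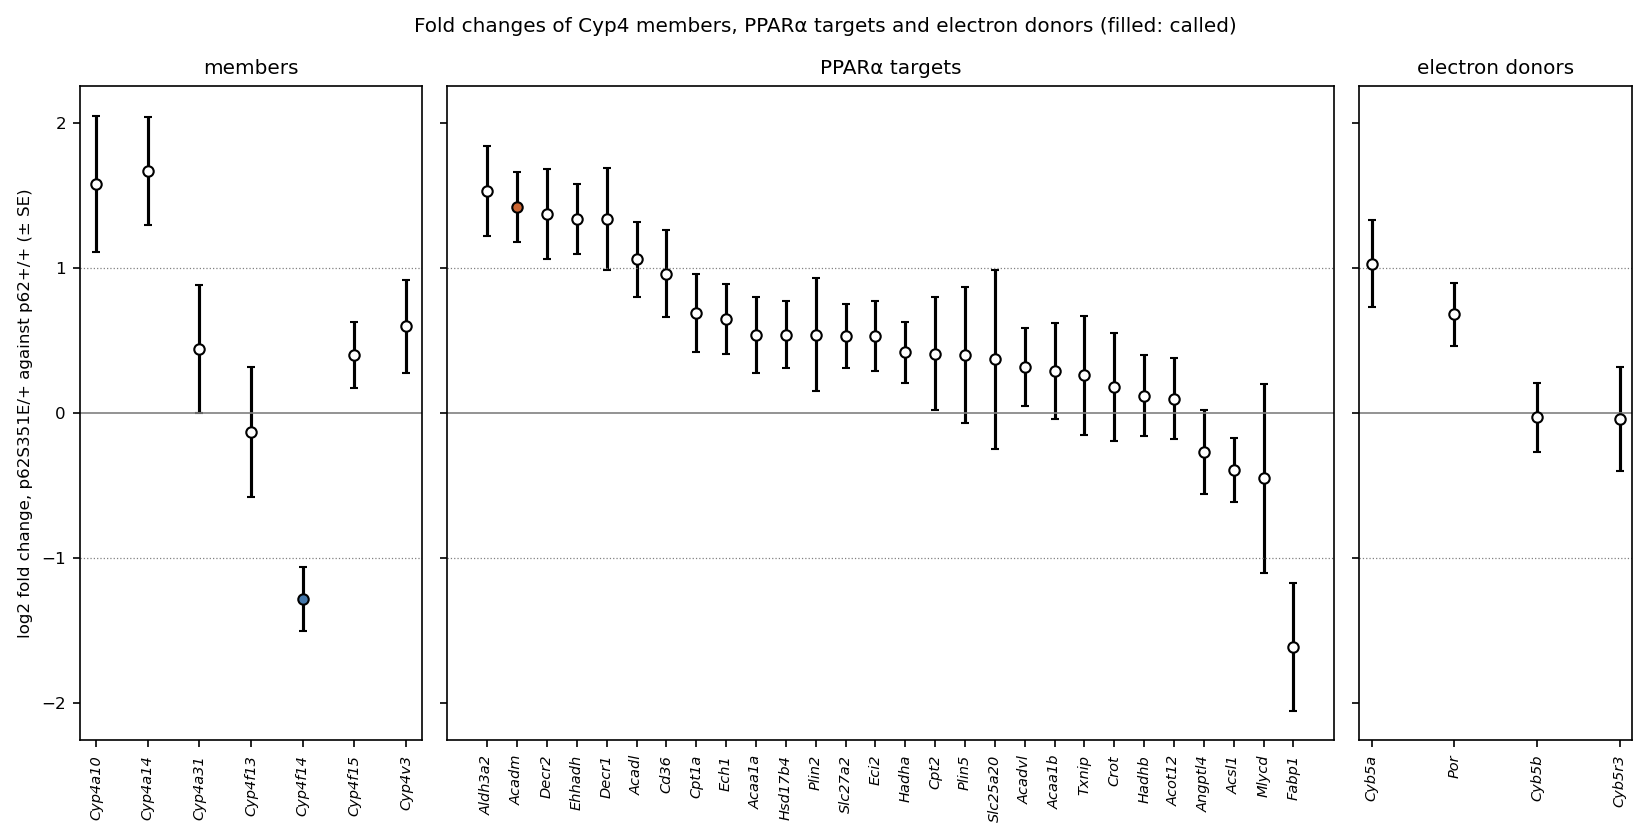
Log2 fold changes of p62S351E/+ against p62+/+ livers (points, vertical axis) with standard errors (bars) and dotted lines at 1 and -1. Shown are the 7 tested members, the PPARα targets reported here and 4 genes listed as electron donors. Filled points are called: Cyp4f14 is the 1 member and Acadm the 1 target, while Cyp4a10 and Cyp4a14 are at 1.58 and 1.67 with wider bars.

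Other P450s that act on arachidonic acid and the epoxide hydrolases, which handle the competing epoxides, were compared with the members as well. Of 16 listed genes, 12 were tested and 2 were called, both higher, beside 0.841% of all genes. Cyp2c37, an arachidonic acid P450 whose reads can be shared with other Cyp2c genes, rose with a log2 fold change of 2.04 (SE 0.25; adjusted p = 0.00913 by edgeR's quasi-likelihood test with Benjamini-Hochberg adjustment), and Ephx1, the microsomal epoxide hydrolase, rose with a log2 fold change of 2.50 (SE 0.29; adjusted p = 0.00728 by the same test). Both calls were lost with library size only (adjusted p 0.417 for Cyp2c37 and 0.252 for Ephx1 by edgeR) and with the replicate block (0.0811 and 0.0529). That of Cyp2c37 was also lost with scaling to hepatocyte markers (0.225) and without p62+/+ mouse 1 (0.0875) or 3 (0.0738), and that of Ephx1 without p62+/+ mouse 2 (0.0608) or 3 (0.0597). The 10 other Cyp4 genes of the table were nearly silent, with 6 listed at 0 in every library and a sum of all 10 between 7 and 17 counts per mouse.

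The tested genes whose log2 level followed Cyp4a14 most closely over the 6 mice were Fbxo21 (Pearson r = 0.978), Hacl1 (0.974), March5 (0.967), Tnrc6a (0.964) and Cyp3a25 (0.958). Those most like Cyp4f14 were Slu7 (0.963), Atp2b1 (0.961), Pom121 (0.960), B630005N14Rik (0.960) and Thrsp (0.959). These 6 points share the library and its depth, and the genes were picked for the highest values among 5945. Among the members, Cyp4a10 and Cyp4a14 had r = 0.89 and Cyp4a14 and Cyp4f14 r = -0.89 over the same 6 mice, pooled over both genotypes. The pairs did not follow the branches, since Cyp4f15 had r = 0.96 with Cyp4a10, 0.86 with Cyp4a14 and -0.75 with Cyp4f14.

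**Figure D5:**
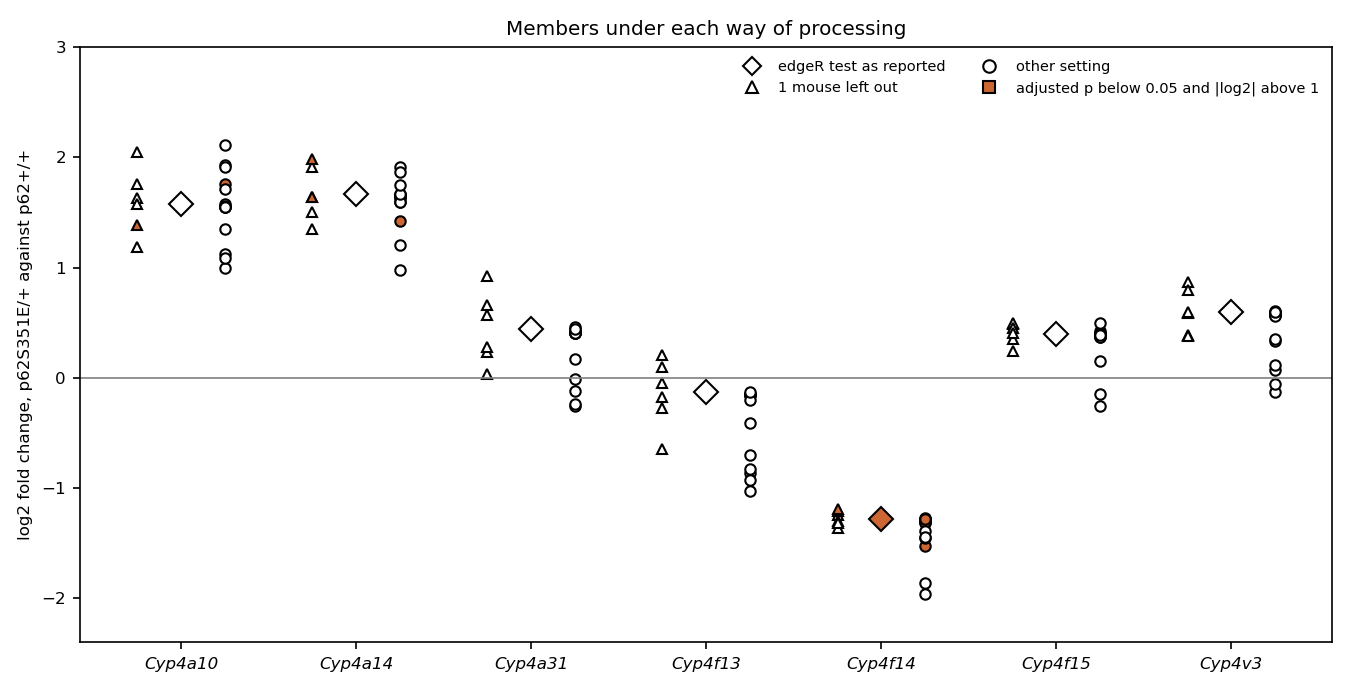
Log2 fold change of each tested member (vertical axis) in the edgeR test as reported (diamonds), with 1 mouse left out (triangles) and under other settings (circles), filled where the adjusted p is below 0.05 and the log2 fold change beyond 1 (p62S351E/+ mouse 3 alone was not tested). Cyp4f14 stays between -1.96 and -1.19 and Cyp4a14 between 0.98 and 1.98, whereas Cyp4a31, Cyp4f13, Cyp4f15 and Cyp4v3 fall on both sides of 0.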

How the data were processed

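Total RNA of 6 livers was depleted of ribosomal RNA and sequenced as 75-base single-end reads. The authors trimmed the reads (Trim Galore), mapped them to mm10 with STAR and deposited RSEM expected counts per gene symbol; the annotation and tool versions were not given in the sources used here. Expected counts were rounded, filtered with filterByExpr (minimum count 10), scaled by TMM and tested with the quasi-likelihood test of edgeR 4.0.16 in R 4.3.3 (robust dispersions, legacy method off), adjusted by Benjamini-Hochberg over 5945 genes. Standard errors were computed from the size of a log2 fold change and the square root of its F statistic, as their quotient. The approximate 95% intervals span 1.96 standard errors on each side and are narrower than the test implies. For Rxra the interval was 0.07 to 0.87, although the unadjusted p was 0.0502 by edgeR's quasi-likelihood test. For normalized counts, expected counts were divided by each library's effective size (library size times TMM factor), itself set relative to the geometric mean of the 6 effective sizes. limma-voom (limma 3.58.1) and DESeq2 1.42.0 were alternatives. The test was checked on counts simulated with the same dispersion for all genes and with changes larger than those of the members. That check does not cover changes of the size reported here. Total counts were 8696712 to 10341622 per mouse, but genes outside Rn45s, Lars2 and Mir6236 held 134911 to 315436 of them, so most genes had few counts and are imprecise.

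Groups and replicate numbers came from the sample labels. Libraries of a genotype differed by more than sampling noise (chi-square per degree of freedom 1.75 to 6.19), so none was counted as a duplicate. Positions, exon lengths and coding sequences came from GENCODE vM21 (GRCm38), and the coding frame was the one whose length matched the annotated coding exons.

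Named genes were all 10 members, every called gene of the lists reported, further list genes with large differences and no overlap, a set of fixed pathway genes, and the 5 genes most like Cyp4a14 and Cyp4f14. Some genes this rule selects are not reported here. The members were taken by symbol as a gene family, and that family and the lists were chosen with earlier results of these data known.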

Additional observations from a re-analysis of the deposited data

How the results depend on the processing

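Cyp4f14 lay lower under all 19 alternatives tested (log2 fold change -1.96 to -1.19, adjusted p 0.000291 to 0.222) but was called in 8 of them. The numbers of Cyp4f and Cyp4v members called lower (1) became 0 with DESeq2, library size only, the Xist covariate, the brain-marker covariate and scaling to hepatocyte markers, and 0 to 1 with 1 mouse left out. The number of Cyp4a members called higher (0) became 2 with limma-voom, 1 with at least 10 counts in every library and 0 to 2 with 1 mouse left out. PPARα targets called higher (1) became 0 with DESeq2, library size only, either covariate and scaling to hepatocyte markers, 3 with the legacy method or no filter, 4 with limma-voom or at least 10 counts in every library, and 0 to 8 with 1 mouse left out. The number of genes higher (50) became 122 with limma-voom, 12 with library size only and with scaling to hepatocyte markers, 79 without a filter, 27 with Xist, 30 with brain markers and 16 to 333 with 1 mouse left out, the highest without p62S351E/+ mouse 3. That of genes lower (5) became 8 with DESeq2 and the legacy method, 13 with limma-voom, 2 with library size only, Xist or brain markers, 10 without a filter, 29 with at least 10 counts in every library and 1 to 975 with 1 mouse left out. The log2 Cyp4a to Cyp4f difference (1.81) was 2.88 for Cyp4a14 over Cyp4f14. With the replicate block, which gave 18 genes higher, 1 lower, 0 PPARα targets and 0 Cyp4f members lower (Cyp4f14 adjusted p = 0.153), the same-numbered mice shared only a number (correlations of deviations 0.07, -0.08 and -0.00).

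Signs changed for Cyp4a31 (-0.26 with library size only, -0.12 with brain markers, -0.24 with hepatocyte markers, -0.01 with p62S351E/+ mouse 3 alone), Cyp4f15 (-0.26 and -0.15) and Cyp4v3 (-0.13 and -0.06) with library size only and hepatocyte markers, and Cyp4f13 (0.10 and 0.21 without mouse 3 of either genotype, -0.65 to 0.21 over the mice left out). In the same 2 scalings Ppara gave -0.32 and -0.27, Sqstm1 -0.39 and -0.27, Rxra -0.23 and -0.13, and Cd5l -0.12 and -0.01. Library size only gave -0.11 for Cpt1a and -0.06 for March5, brain markers gave 0.93 for Xist, and mouse 3 alone 0.74 for Xist. The causes were not tested. Scaling to hepatocyte markers and mouse 3 alone, a value with no test, were chosen after seeing the data. Counts per member, from 0 to 148 in a library, limit what can be resolved.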
